A study of Caenorhabditis elegans with 2 samples.

Results

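The genes of 10 transcription factors known for building or maintaining the epidermis of Caenorhabditis elegans were examined for peaks of the epidermal fate factor LIN-26. They were elt-1, elt-3, egl-18, elt-6, ceh-16, nhr-23, nhr-25, grh-1, blmp-1 and lin-29, 10 of the 19973 nuclear protein-coding genes of the annotation. These genes were chosen for their known roles, but with earlier results of these data known. Every peak overlapping a gene or the 5 kb on either side of it was taken. Whole animals were taken as young adults, at an age of 64 hours, and the 2 biological replicates form 1 group of ChIP-seq samples known by their peak lists. Strain RW12178 carries a GFP insertion at lin-26, made by CRISPR together with a rescuing unc-119(+) copy and loxP sites, in an unc-119(tm4063) III background. Both replicates shared this genotype and were synchronized by bleaching and starvation as L1 larvae. Chromatin was precipitated through the GFP tag, while lin-26 is entered as the antibody in the labels. The animals were not sorted, so the cell type in which a peak arose cannot be told apart, and no untagged group was analysed here.

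The worm epidermis consists of large syncytial cells and rows of seam cells, which divide through the larval stages and fuse at the adult stage. LIN-26 is a zinc-finger protein needed for epidermal cells to keep their fate. GATA factors and the engrailed homolog CEH-16 act early in specifying and maintaining these cells. Nuclear receptors drive the molting cycle, and BLMP-1, GRH-1 and LIN-29 act on cuticle formation and on the timing of epidermal development.

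LIN-26 peaks lay at 3 of the 10 genes, and these were lin-29, blmp-1 and grh-1. The thresholded list made from both replicates placed 5 peaks in their windows, of which 2 belonged to lin-29, 2 to blmp-1 and 1 to grh-1. None of the 4 GATA factor genes, neither nuclear receptor gene and not ceh-16 had a thresholded peak. The share of 30% (95% Wilson interval 10.8 to 60.3) stood beside 29.4% of all protein-coding genes with a peak in the same window. The members' count is therefore near the background. The members' windows were longer, with a median of 15.9 kb against 12 kb, and among the 4829 genes with windows as long as theirs 35.9% had a peak. Per length, the members held 2.95 peaks per 100 kb of window (exact Poisson interval 0.957 to 6.88), and the windows of all protein-coding genes held 3.24. Only lin-29 had a thresholded peak overlapping the gene itself, 1 gene of 10 beside 8.87% of all genes.

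The signal value of a peak is the authors' own measure of enrichment over a control, and it ranks peaks within 1 list only. The irreproducible discovery rate (IDR) is low where a peak ranks consistently high in the inputs compared. The lowest score in the thresholded lists stands for an IDR of 0.01. The list of both replicates held 3187 nuclear peaks with a median signal of 112, replicate 1 alone gave 1191 and replicate 2 alone gave 2083. The ranked list behind it, which keeps weak peaks too, held 85149. Read depth is unknown, since the lists carry no counts. Intervals on shares and densities cover counting error only.

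Peaks at lin-29, which encodes the zinc-finger factor that ends the larval program of the seam, were found in every thresholded list. The gene lies on the minus strand at II:11917642-11935343 (WBcel235, the assembly that ce11 names) and spans 17.7 kb. Its strongest peak, at II:11917466-11917801, had a signal of 148 and an IDR of 0.00041 in the list of both replicates. It ranked 959 by signal in that list. Replicate 1 alone gave 62.4 (IDR 0.00096) and replicate 2 alone gave 83.9 (IDR 0.0022), so the peak passed the threshold in each. The summit fell 8 bp beyond the 3' end of lin-29, inside the 3' untranslated region of hmg-12, an HMG-family gene that converges on lin-29 from the other strand. The other peak, at II:11916594-11916929, had a signal of 136 and an IDR of 0.00096. Its signals were 56.8 (IDR 0.0064) in replicate 1 and 82.4 (IDR 0.0014) in replicate 2. Its summit lay 880 bp downstream of lin-29, in the coding sequence of hmg-12 and 249 bp from the 5' end of that gene. Both peaks thus lay at the end of lin-29 that is farthest from its first exon. The 150 bp at the summit of the second peak are shown (RefSeq, WBcel235, plus strand) because it is a reproducible peak within another gene's coding exon. They hold none of the 8 motifs searched.
II:11916687-11916836: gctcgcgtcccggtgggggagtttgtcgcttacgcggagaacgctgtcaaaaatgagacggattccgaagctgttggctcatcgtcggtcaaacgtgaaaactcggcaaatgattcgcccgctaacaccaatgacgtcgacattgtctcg

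Within the body of lin-29, a peak at II:11923953-11924288 fell just outside the threshold. It lay in an intron, 2683 bp upstream of an internal 5' end of lin-29, with a signal of 86.7 and an IDR of 0.0103. Replicate 2 gave 57.0 (IDR 0.087) and replicate 1 gave 27.3 (IDR 0.87), so neither replicate alone ranked it past the threshold. Replicate 1 alone had a further thresholded peak at II:11917702-11917977 in the lin-29 3' untranslated region. Its signal there was only 19.2, at an IDR of 0.00095, and the peak in the list of both replicates at this place had a signal of 58.1 and an IDR of 0.54. The window of lin-29 held 36 ranked peaks, the most of the 10 genes, and was also the longest at 27.7 kb.

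The gene blmp-1 encodes a zinc-finger factor homologous to Blimp-1 that acts in epidermal timing and cuticle formation. It lies at I:10409302-10414773 and had 1 peak on each side. The downstream peak, at I:10418015-10418350, was the strongest at any of the 10 genes, with a signal of 161 and an IDR of 0.00053. Replicate 1 gave 59.5 (IDR 0.0024) and replicate 2 gave 104 (IDR 0.00052), and the peak stood in all thresholded lists. Its summit lay 3.41 kb beyond blmp-1 and outside annotated genes. The nearest protein-coding 5' end, 3675 bp away, was that of maph-1.2, a neighbour on the opposite strand. The upstream peak, at I:10407436-10407771, was much weaker, with a signal of 74 and an IDR of 0.0062. It was the peak of the 5 whose nearest protein-coding 5' end was that of the member itself, 1698 bp away. The non-coding gene F25D7.6 lay closer, at 19 bp. The upstream peak had a signal of 34.9 (IDR 0.62) in replicate 1 and 48.7 (IDR 0.034) in replicate 2. It passed the threshold in neither replicate alone and had an IDR of 0.016 in the conservative ranking. Of the list of both replicates, 91.7% of the peaks had a higher signal than the upstream peak.

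At blmp-1 the 2 series-wide lists differed. The conservative list lacked the upstream peak and held instead one at I:10417286-10417621, 2.68 kb downstream, with a signal of 112. The IDR of that peak was 0.0026 in the conservative ranking and 0.13 in the other. The replicates placed it at 49.0 (IDR 0.74) and 59.2 (IDR 0.69), far from the threshold.

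The gene grh-1, on the minus strand at I:1258201-1268155, encodes the Grainyhead homolog, a factor of epidermal barrier and cuticle. Its peak at I:1271010-1271345 had a signal of 104 and an IDR of 0.0020. Replicate 2 alone placed it past the threshold, with 66.9 (IDR 0.0046), and replicate 1 gave 33.6 (IDR 0.41). The conservative ranking gave an IDR of 0.013, so the conservative list did not hold it. The summit lay 3.02 kb upstream of grh-1 and 338 bp upstream of the neighbouring gene Y48G8AR.8, whose 5' end was the nearest. A weaker peak at I:1263888-1264223 lay in a grh-1 intron, 51 bp upstream of an internal 5' end of the gene, with a signal of 65.5 and an IDR of 0.034. Replicate 1 gave 31.4 (IDR 0.68) and replicate 2 gave 38.9 (IDR 0.20) for it.

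**Figure D1:**
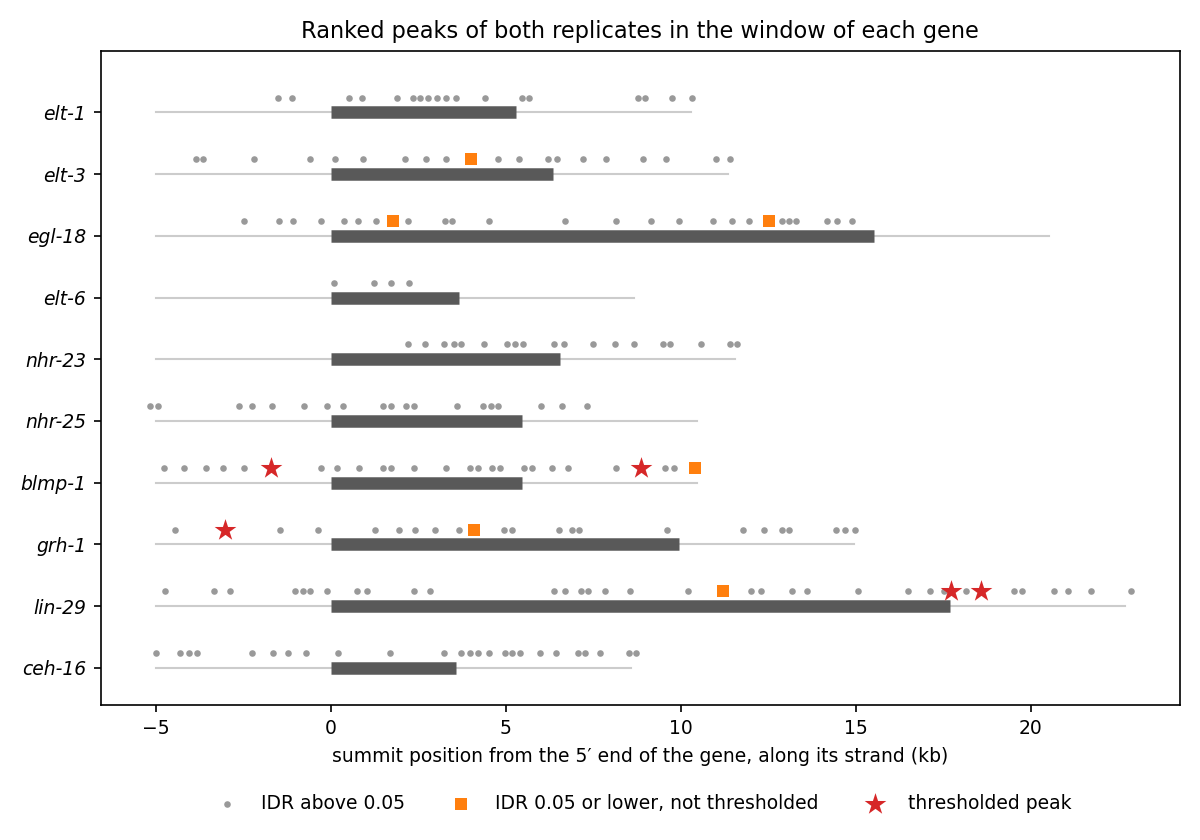
Summits of the ranked peaks of both replicates along each of the 10 genes, in kb from the 5' end of the gene along its strand. The dark bar is the gene and the thin line the 5 kb on each side. Stars are the 5 thresholded peaks, squares the peaks with an IDR of 0.05 or lower that were not thresholded, and dots all others. Peaks shared by the windows of egl-18 and elt-6 are drawn on the row of the nearer gene. No star stands within a gene.

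Agreement between the replicates separated these 5 peaks. Of them, 3 overlapped a thresholded peak in each replicate, namely both lin-29 peaks and the downstream blmp-1 peak. The grh-1 peak overlapped one in replicate 2 alone, and the upstream blmp-1 peak overlapped none in either. Among all 3187 nuclear peaks, 930 (29.2%) were found in both replicates and 1196 (37.5%) in neither. With replicate 1 alone, 2 of the 10 genes had a peak beside 13.7% of all genes. With replicate 2 alone, 3 of the 10 had one beside 21.1%. In the conservative list the count was 2 of 10 beside 26.0%. The genes in these lists were always among lin-29, blmp-1 and grh-1. All 5 peaks lay at least 26.1 kb from the nearest tRNA, snoRNA or snRNA gene.

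**Figure D2:**
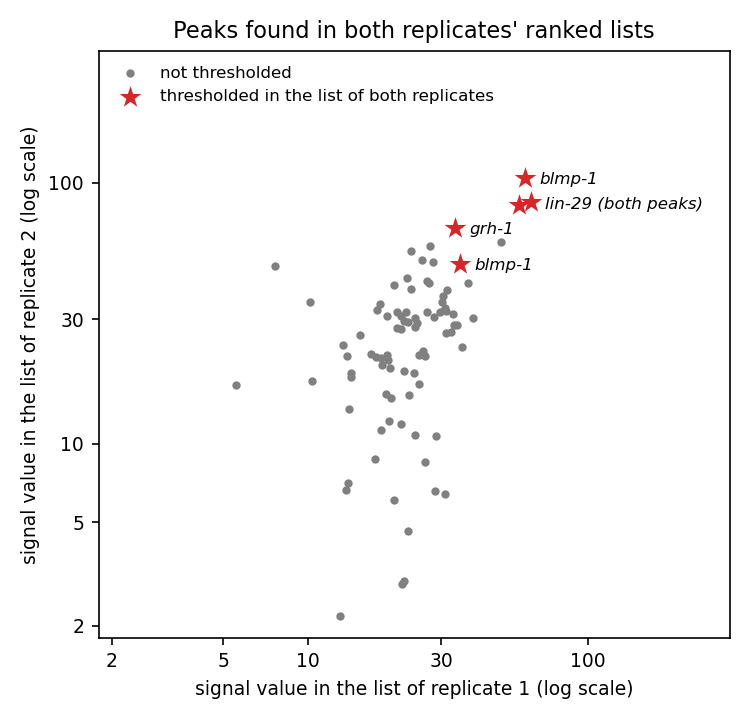
Signal of the 86 ranked peaks at the 10 genes that were matched in both replicates' ranked lists, with replicate 1 on the horizontal and replicate 2 on the vertical axis, both logarithmic. Stars mark the 5 thresholded peaks, named by gene. Both lin-29 peaks and the stronger blmp-1 peak have the highest signals of the 86 in each list. The signal is not scaled between the lists, so the axes are not comparable with each other.

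Among the 4 GATA factor genes, the best peaks of elt-3, egl-18 and elt-6 had IDR values between 0.01 and 0.05, and that of elt-1 was higher. The gene elt-1, at IV:9614995-9620280, encodes the factor that specifies the epidermal fate in the embryo. Its best ranked peak, at IV:9625153-9625488, had a signal of 49.6 and an IDR of 0.17, and 70.3% of protein-coding genes had a lower best IDR. It lay at the outer edge of the window, with its summit 5041 bp downstream of elt-1 and 244 bp upstream of the 5' end of W09C2.10. Replicate 1 gave 26.7 (IDR 0.58) and replicate 2 gave 31.9 (IDR 0.47). The window of elt-1 held 18 ranked peaks, and none of them had an IDR of 0.05 or lower.

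The gene elt-3, at X:13934874-13941216, encodes a GATA factor of the epidermis outside the seam. Its best peak, at X:13938711-13939046, lay in an intron, 136 bp downstream of an internal 5' end, with a signal of 85.8 and an IDR of 0.029. Its signal was 10.2 (IDR 0.055) in the list of replicate 1 and 35.0 (IDR 0.19) in that of replicate 2. In replicate 2 the best peak of elt-3 was another, at X:13935679-13935998 in an intron 843 bp from a 5' end, with a signal of 50.3 and an IDR of 0.034. Of the members without a thresholded peak, elt-3 had the highest signal.

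The genes egl-18, at IV:1902322-1917840, and elt-6, at IV:1917977-1921643, are adjacent GATA factor genes that maintain the seam cells. Their windows overlap and shared 14 ranked peaks, so their values are not independent. The peak with the lowest IDR was the same for both, at IV:1914678-1915013 in egl-18 coding sequence and 3131 bp upstream of elt-6. It had an IDR of 0.018 but a signal of only 16.6, below the ranked median of 30.8, and it matched no ranked peak in either replicate at the overlap required. Replicate 2 had its own best peak for both genes beside it, at IV:1914516-1914835, with a signal of 27.7 and an IDR of 0.039. That peak shared 158 of its 320 bp (49.4%) with the other, just under the 50% needed for a match. The peak with the highest signal at egl-18, at IV:1903940-1904275, lay in an intron 1786 bp from the 5' end of the gene. Its signal was 73.7, with an IDR of 0.030 in the main ranking and 0.050 in the conservative one. Replicate 1 gave 28.0 (IDR 0.58) and replicate 2 gave 49.6 (IDR 0.63), which leaves both far above the threshold. At elt-6 the highest signal was 67.0 (IDR 0.077), at IV:1913081-1913416 within egl-18. The summits of the 2 egl-18 peaks and of the elt-1 peak are shown to set these weaker peaks side by side (150 bp each, RefSeq, WBcel235, plus strand). Capitals mark the GATA motif TGATAA or its reverse complement TTATCA, which the intron peak and the elt-1 peak hold and the coding peak does not.
egl-18 intron, IV:1904033-1904182: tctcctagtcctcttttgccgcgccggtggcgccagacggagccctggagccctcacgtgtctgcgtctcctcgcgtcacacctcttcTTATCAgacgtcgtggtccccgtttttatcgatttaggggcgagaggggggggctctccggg
egl-18 coding exon, IV:1914771-1914920: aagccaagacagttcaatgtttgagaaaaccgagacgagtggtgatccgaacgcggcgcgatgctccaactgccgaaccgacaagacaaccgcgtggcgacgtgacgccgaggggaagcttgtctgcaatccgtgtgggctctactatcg
elt-1 downstream, IV:9625246-9625395: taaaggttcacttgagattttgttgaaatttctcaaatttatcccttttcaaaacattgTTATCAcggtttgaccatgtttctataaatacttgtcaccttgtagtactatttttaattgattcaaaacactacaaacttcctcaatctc

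The gene ceh-16, at III:8622735-8626314, encodes the engrailed homolog of the seam cells. Its best ranked peak, at III:8631082-8631417, had a signal of 57.7 and an IDR of 0.11, with 30.9 (IDR 0.73) in replicate 1 and 33.2 (IDR 0.70) in replicate 2. The summit lay 4.94 kb downstream, in coding sequence of the DnaJ-family gene dnj-10. The conservative ranking gave another order. There the best peak was at III:8630264-8630599, in an intron of gpr-1, with a signal of 78.0 and an IDR of 0.022 against 0.44 in the other ranking. The window held 25 ranked peaks, of which 3 lay in ceh-16 itself and 14 downstream of it.

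The nuclear receptor gene nhr-25, at X:13008493-13013964, encodes the Ftz-F1 homolog, which acts in epidermal development and molting. Of the best ranked peaks of the 10 genes, its peak lay nearest to a 5' end of the member itself, with the summit 93 bp upstream. The peak at X:13008232-13008567 had a signal of 64.4 and an IDR of 0.15, or 0.058 in the conservative ranking. Replicate 1 gave 30.5 (IDR 0.68) and replicate 2 gave 36.7 (IDR 0.58). The place is also an exon of the non-coding gene F11C1.12. The 150 bp at the summit are shown because this best peak lies next to the member's own start (RefSeq, WBcel235, plus strand). Capitals mark TCTCTC, the reverse complement of the GA repeat GAGAGA.
X:13008325-13008474: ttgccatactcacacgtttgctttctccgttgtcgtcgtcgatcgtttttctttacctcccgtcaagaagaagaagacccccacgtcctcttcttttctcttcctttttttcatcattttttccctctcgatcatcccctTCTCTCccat

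The other nuclear receptor gene, nhr-23, encodes the ROR homolog that drives the molting cycle, and lies at I:7214745-7221299. No ranked peak had its summit in the 5 kb upstream of nhr-23, in any of the 4 ranked lists. Of its 19 ranked peaks in the list of both replicates, 10 lay in the gene and 9 downstream. The highest signal, 81.6 at an IDR of 0.086, was in an intron at I:7217261-7217596. In replicate 2 the peak at this place had a signal of 54.7 and an IDR of 0.049. The lowest IDR, 0.076 with a signal of 70.2, belonged to a peak at I:7225986-7226321 in coding sequence of swsn-9, a neighbouring chromatin remodelling gene. In replicate 1 the best peak was at I:7214839-7215114, 10 bp from a 5' end of nhr-23, with a signal of 45.1 and an IDR of 0.12.

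**Figure D3:**
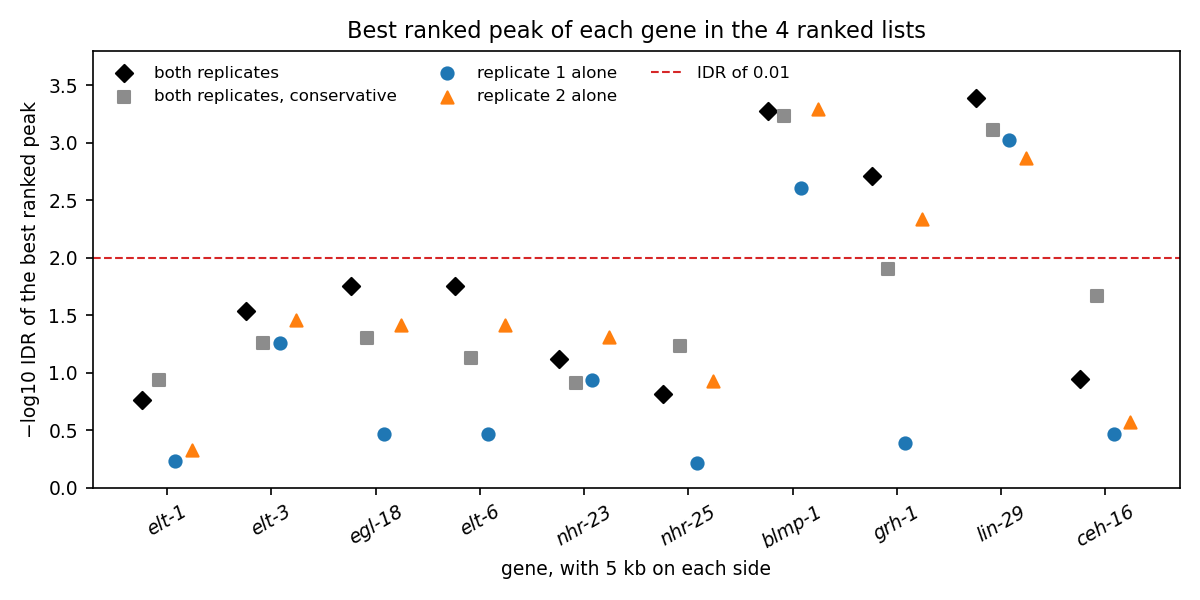
The −log10 IDR of the best ranked peak at each of the 10 genes in the 4 ranked lists, so that higher points are more reproducible. The dashed line stands for an IDR of 0.01. Only blmp-1, grh-1 and lin-29 have points above it, and grh-1 has them in the list of both replicates and in replicate 2 alone.

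With the threshold relaxed to an IDR of 0.05, elt-3, egl-18 and elt-6 joined, and 6 of the 10 genes had a peak beside 48.2% of all genes. Of these, elt-6 joined only through the peak in egl-18 coding sequence, which also counts for egl-18 and matched no ranked peak in either replicate. The peaks then numbered 11, or 6.48 per 100 kb beside 6.81 in all windows. The other 4 genes, elt-1, nhr-23, nhr-25 and ceh-16, had no such peak in that list. The count depended on the list. At the same IDR the conservative ranking gave 4 genes beside 45.1% of all, where elt-3, egl-18 and elt-6 dropped out and ceh-16 entered. Replicate 1 alone gave 2, blmp-1 and lin-29, beside 21.2%. Replicate 2 alone gave 7 beside 32.2%, the 6 genes named above and nhr-23. There too, 1 peak within egl-18 counted for both egl-18 and elt-6. In none of the 4 ranked lists did elt-1 or nhr-25 have such a peak. The median best IDR was 0.023 over the members, 0.030 over genes with windows in their length range and 0.056 over all protein-coding genes. The members spread widely around it. At lin-29, 10.6% of genes had a lower best IDR, at blmp-1 11.7% and at grh-1 18.6%, and at ceh-16, nhr-25 and elt-1 the values were 62.5%, 68.1% and 70.3%.

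Weak peaks were dense at the 10 genes. Their windows held 216 ranked peaks, or 1.27 per kb beside 0.863 per kb in the windows of all protein-coding genes, but only 11 of them (5.09%) had an IDR of 0.05 or lower, beside 7.87% of all ranked peaks. Their median signal, 29.2, was close to the 30.8 of all ranked peaks. Within the genes lay 109 of the 216, at 1.37 per kb, while 64 lay downstream at 1.42 per kb and 43 upstream at 0.954 per kb. By summit, the 5 thresholded peaks were all outside the genes, with 2 upstream and 3 downstream. Of the 216, 86 (39.8%) had a match in both replicates' ranked lists. Across these 86 peaks the Spearman correlation of the signals was 0.462, a description only, since neighbouring peaks share library and background.

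The letters at the summits differed from peak to peak. In 150 bp windows, both strands were searched for 8 short motifs. GATA factors were represented by TGATAA and by the variant AGATAA. The site AAGGTCA stands for receptors of the NHR-23 and NHR-25 type, AACNNGTT for Grainyhead, AGNGAAAG for BLMP-1 and TAATTA for homeodomain factors. The GA repeat GAGAGA and the tRNA B box, GTTCNANNC, were searched as well. TGATAA was found at the downstream blmp-1 peak and in 9.51% of all thresholded peaks. AGATAA was found at the lin-29 peak next to the 3' end and in 5.74% of all. The upstream blmp-1 peak and the grh-1 peak each held AGNGAAAG (4.30% of all) and GAGAGA (20.1% of all), whose letters can overlap. The remaining 4 motifs were at none of the 5, and they occurred in 2.45% (AAGGTCA), 3.86% (AACNNGTT), 3.17% (TAATTA) and 21.8% (GTTCNANNC) of all thresholded peaks. Among the 216 ranked peaks, 37 (17.1%) held TGATAA beside 11.8% of all ranked peaks. The shares were 8.80% beside 7.33% for AGATAA, 12% beside 9.97% for GAGAGA, 3.70% beside 2.86% for AGNGAAAG and 5.09% beside 5.17% for TAATTA. They were below those of all ranked peaks for AAGGTCA (0.926% beside 1.39%), AACNNGTT (3.24% beside 4.40%) and GTTCNANNC (5.56% beside 6.57%). GC content of the 5 windows ran from 32% at lin-29 to 72.0% at grh-1, while the quartiles over all thresholded windows were 40.7% and 51.3%.

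Other genes of the same pathways were counted in 5 lists, beside the same background of 29.4%, as descriptions with no test. The lists were chosen with earlier results of these data known. Heterochronic and molting regulators that act with lin-29, blmp-1 and the nuclear receptors had a peak at 12 of 16 genes (75%, 50.5 to 89.8). Their windows, with a median of 16.6 kb, held 20 peaks, or 6.48 per 100 kb. Replicate 2 alone gave 9 of 16 (56.2%) beside 21.1% of all genes, but replicate 1 alone gave 2 of 16 (12.5%), below its background of 13.7%. The strongest peaks of this list were at daf-12 (310), a nuclear receptor gene whose peak lies on the tRNA gene F11A1.t1, and at myrf-1 (187), a membrane-bound factor of molting, whose peak 326 bp upstream was in both replicates' lists. They were followed by lin-66 (166), lin-46 (145), myrf-2 (130) and lin-41 (117), the last of which encodes a repressor of lin-29. The peaks of lin-66, lin-46 and myrf-2 were in the list of replicate 2 but not in that of replicate 1. The lin-41 peak was in neither, and it lay 2.09 kb downstream of lin-41, outside annotated genes. The lin-46 peak lay 64 bp upstream of the 5' end of R186.8. Of the 12 genes, only daf-12 and myrf-1 had a strongest peak that overlapped a thresholded peak in each replicate. A thresholded peak overlapped the gene itself at 7 of the 16 genes (43.8%), beside 8.87% of all genes. The genes of this list are longer, with a median window of 16.6 kb against 12 kb for all genes. No share among genes of like length was computed for this list.

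By share of genes, the other lists stood nearer to the background in the list of both replicates. All windows held 3.24 peaks per 100 kb. The Wnt list held 3.56, the further seam and early regulators 2.13 and the effectors 3.42. The windows of the 7 gut-lineage GATA genes held 6.70, above the 6.48 of the heterochronic list. Of 14 Wnt asymmetry genes acting in the seam, 5 had a peak (35.7%, 16.3 to 61.2), led by sys-1, a beta-catenin gene, at a signal of 137, and pop-1, the TCF gene, at 109. They were followed by lit-1 (97.1), mom-5 (90.3) and lin-17 (82.7), and none of these 5 strongest peaks was in both replicates' lists. The sys-1 peak lay 171 bp downstream of sys-1 and 230 bp upstream of the 5' end of eif-3.C. The pop-1 peak lay 1.29 kb upstream of pop-1, in exons of W10C8.8 and W10C8.12. Of 19 further seam and early epidermal regulators, 5 had one (26.3%, 11.8 to 48.8), with signals of 276 at nhr-81, 180 at ceh-43, 104 at lin-26, 102 at tbx-8 and 95.5 at tbx-9. The peaks of nhr-81, ceh-43 and lin-26 lay within 500 bp of an snRNA, tRNA or snoRNA gene. Of 24 epidermal effector genes, 8 had a peak (33.3%, 18 to 53.3). The strongest were at ajm-1 (303), vab-10 (258), col-19 (226), bli-1 (225), dlg-1 (216) and let-413 (96.3). Those of ajm-1, vab-10 and dlg-1 lay at tRNA genes. The bli-1 peak lay 1.05 kb upstream, in col-80 coding sequence, and the let-413 peak 4.70 kb upstream, in F26D11.1 coding sequence. Of 7 GATA factor genes of the gut lineage, 2 had one (28.6%, 8.22 to 64.1), med-2 at 344 next to a tRNA gene and end-3 at 108. The 5 peaks at the epidermal factor genes had signals from 74 to 161 and lay near no such short RNA gene. This was not particular to them. The strongest peak lay within 500 bp of such a gene at 0 of the 5 Wnt genes with a peak. In the heterochronic list it did so at 1 of 12. The share over all thresholded peaks is not given here.

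**Figure D4:**
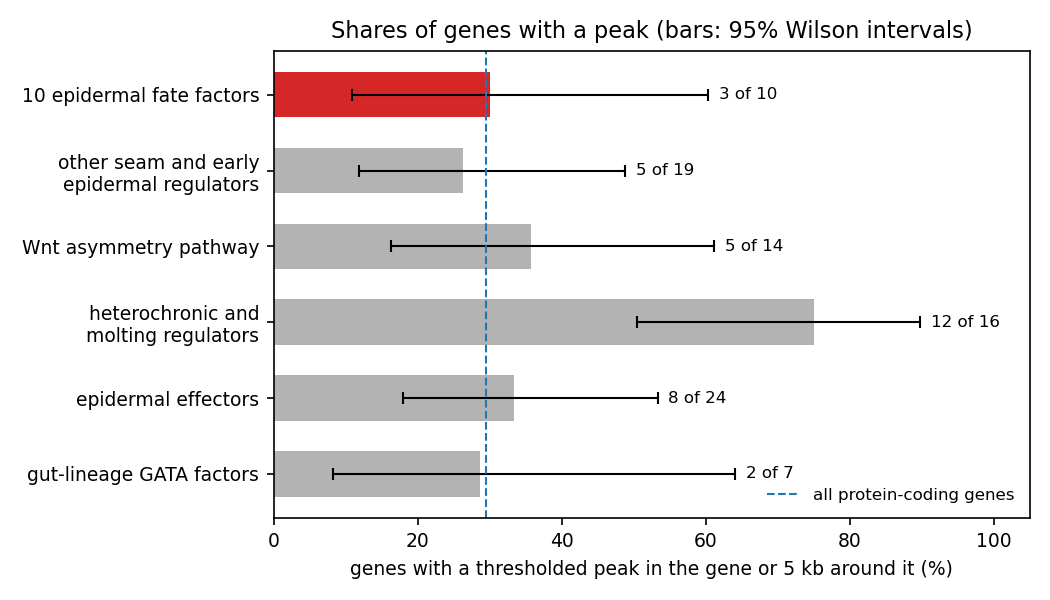
Share of genes with a thresholded peak in the gene or the 5 kb around it, in percent, for the 10 epidermal factor genes and the 5 pathway lists, with 95% Wilson intervals. The vertical line is the share of all protein-coding genes, 29.4%. The 10 genes sit at 30%, and the heterochronic and molting list at 75%. The members and the lists were chosen with earlier results of these data known, and the intervals cover counting error only. In replicate 1 alone that list gave 12.5%.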

How the data were processed

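ChIP-seq peak lists of LIN-26::GFP from 2 biological replicates of 1 group were analysed, on assembly ce11 per the labels. The 8 deposited lists comprised 4 ranked by IDR and 4 thresholded, 1 of each kind per replicate and the others from both replicates, made against a control alignment per the deposited text. The aligner, the peak caller and its IDR limit were not given in the sources used here. Each peak has a deposited signal value, the caller's enrichment over the control, which cannot be compared between lists. Its deposited score is the IDR rescaled to whole numbers. The deposited −log10 of the global IDR was converted to an IDR. Columns of input signals without a sample name were left out.

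The main list was the less strict of the thresholded lists of both replicates. Mitochondrial peaks were left out. Genes came from Ensembl release 115 on WBcel235, with RefSeq symbols through WormBase identifiers for 95.36% of 46926 genes. A window was a gene and 5 kb on each side. Peaks were matched between lists at an overlap of at least 50% of the shorter peak. A gene's best ranked peak had the lowest IDR, with ties settled by signal. Matches to 8 motifs were counted in 150 bp at the summit. No test was run: with 1 group there is none over samples, and counts stand beside those of all genes with 95% intervals. The labels call the replicates biological without naming cultures. All members were named, and in each list the genes with a peak up to 6 by signal. The members, gene lists, motifs and alternatives were chosen with earlier results of these data known. Alternatives were the conservative list, each replicate alone, other IDR limits, window sizes, overlap rules and motif widths. An IDR of 0.05 in the ranked lists other than the main one was added after seeing the data. The counting steps were tested on simulated data. Counting used pandas 2.3.3 and numpy 2.4.6 under Python 3.11.15, intervals scipy 1.17.1 and figures matplotlib 3.10.9.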

Additional observations from a re-analysis of the deposited data

How the results depend on the processing

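No paired analysis was possible because both replicates belong to 1 group. The count of 3 members with a peak became 6 at an IDR of 0.05, beside 48.2% of all genes, and 5 at 0.02, beside 36.6%. It was 1 with windows of 1 kb, beside 15.2%, where lin-29 alone stayed. With 2 kb it was 2, beside 19.1%, and with 10 kb it stayed at 3, beside 42.7%. Chosen after seeing the data, an IDR of 0.05 in the other ranked lists gave 4 in the conservative one, 2 in replicate 1 and 7 in replicate 2, with background shares of 45.1%, 21.2% and 32.2%. The 5 peaks became 11 at an IDR of 0.05, 8 at 0.02, 2 with 1 kb, 3 with 2 kb and 8 with 10 kb. The background share of 29.4% moved with the same settings. It was 26.0% in the conservative list, 48.2% at an IDR of 0.05, 36.6% at 0.02, 24.5% at 0.005, and 15.2%, 19.1% and 42.7% with 1, 2 and 10 kb. Leaving out a replicate gave 13.7% to 21.1%. The density of all windows, 3.24 peaks per 100 kb, was 2.70 in the conservative list, 6.81, 4.41 and 2.52 at IDR limits of 0.05, 0.02 and 0.005, and 3.41 with 1 kb. Leaving out a replicate gave 1.21 to 2.12. The 32 listed genes with a peak fell to 21 with 1 kb, and leaving out a replicate gave 11 to 23. Stricter limits and narrower windows admit fewer peaks by construction, and the cause of the difference between replicates was not tested. The number of members with a best IDR of 0.01 or lower was 3 in the main ranking and in replicate 2 alone. It was 2 in the conservative ranking and in replicate 1 alone. The number of member peaks found in both replicates' lists stayed at 3 under the other matching rules tried. Unknown read depth limits what a missing peak shows: a gene without a peak at a threshold is not shown to lack one.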
